A study of Mus musculus with 2 samples.

Results

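The Mir34 and Mir449 genes form 1 seed family over 3 loci, and their levels were read in left cerebral cortex from B6CASTF1/J females at 25 days of age. The members were the 6 genes named Mir34a, Mir34b, Mir34c, Mir449a, Mir449b and Mir449c, of 2202 microRNA genes counted. B6CASTF1/J is an F1 hybrid between laboratory and wild-derived parents, and the labels give no treatment. The only group is made up of 2 small RNA libraries, replicates 1 and 2. The labels number the animals separately but give both the same donor record, so differences between these libraries may be technical. The p-values below compare only these 2 libraries. Except where the spread between libraries is counted as noise, they set a difference against counting noise alone.

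A microRNA guides silencing of messenger RNAs mainly through its seed, bases 2 to 8 of the mature strand, so genes with the same seed can share many targets. Mir34a, Mir34b and Mir34c are direct targets of the tumour suppressor p53, and Mir34a is the member best known from neurons, where it has been linked to differentiation and ageing. Mir34b, Mir34c and the Mir449 genes are best known from multiciliated cells, which in the brain line the ventricles and form the choroid plexus, and loss of the whole family in mice impairs motile cilia.

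The sequences below show what the members have in common and where they part, from RefSeq on build GRCm38.p6, with hairpins for 5 of the 6 members. Capitals mark the seed, and in the Mir34c hairpin the same 7 letters.
mmu-miR-34a-5p: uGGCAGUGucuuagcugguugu
mmu-miR-34b-5p: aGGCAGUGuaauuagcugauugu
Mir34c hairpin: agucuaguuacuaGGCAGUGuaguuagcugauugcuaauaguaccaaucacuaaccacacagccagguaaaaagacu
mmu-miR-449a-5p: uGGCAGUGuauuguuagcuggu
mmu-miR-449c-5p: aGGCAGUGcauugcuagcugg
The 3p arms of the Mir34b and Mir34c hairpins are printed because they carry a second seed, which differs from that of Mir34a and Mir449a.
mmu-miR-34b-3p: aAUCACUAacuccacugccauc
mmu-miR-34c-3p: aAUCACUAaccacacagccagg
mmu-miR-34a-3p: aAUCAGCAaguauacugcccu
mmu-miR-449a-3p: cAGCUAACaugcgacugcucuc

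All 4 printed 5p arms have the seed GGCAGUG. Of 1679 mature sequences in the RefSeq table, those 4 alone had it at bases 2 to 8. The RefSeq table holds no mature 5p entry for Mir34c and no entry for Mir449b, so their mature 5p seeds could not be read. Searched on the RNA strand alone, the same letters stood somewhere in 17 of 1005 hairpins (1.69%), so their presence in a hairpin is not particular to the family. The 3p seed AUCACUA was found in Mir34b and Mir34c and in no other mature sequence of the table.

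Outside the seed the members differ, by an amount that depends on the alignment. The letters uagcug follow the seed in every 5p arm and in the Mir34c hairpin printed above, but at differing distances. Without gaps, such a displaced stretch is counted as differences, so the counts below are not a measure of divergence. Laid on the Mir34c hairpin without gaps and counted from 1 at the 5′ end of the arm, the 23 nt of mmu-miR-34b-5p differed by A11G and U23C. The 22 nt of mmu-miR-34a-5p differed from the same stretch at 11 positions, and those of mmu-miR-449a-5p at 12. Against the Mir449c hairpin, mmu-miR-449a-5p differed at 4 positions, U1A, U9C, U14C and U22C. The longest stretch shared by any pair of the 5 hairpins was 11 nt, between Mir34a and Mir449a and between Mir34b and Mir34c. Compared with 1000 other hairpins, the longest shared stretch was 14 nt, for Mir449a. Copies elsewhere in the genome were not looked for. Hairpin lengths ran from 77 nt for Mir34c to 109 nt for Mir449c, and predicted folding energies per nt from -0.49 kcal/mol for Mir449a to -0.38 kcal/mol for Mir449c.

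The 3 loci differ in their setting. Mir34a lies alone at chr4:150068454-150068555 on the plus strand of mm10, and its last 17 nt overlap an exon of Gm37795, an unclassified transcript on the same strand. Mir34b (chr9:51103562-51103645) and Mir34c (chr9:51103034-51103110) lie 451 nt apart on the minus strand, opposite to an intron of Btg4, known in mice for clearing maternal messenger RNA from the early embryo. Of 5 annotated Btg4 transcripts, 1 spans them. Mir449c (chr13:113035983-113036091), Mir449b (chr13:113037419-113037498) and Mir449a (chr13:113037534-113037624) lie in that order on the plus strand within an intron of Cdc20b, in all 5 of its transcripts. Mir449b and Mir449a are 35 nt apart, and Mir449c lies 1327 nt before Mir449b. No other counted microRNA gene lies near: the nearest is Gm47301, 250631 nt from Mir34a, with 0 counts in both libraries.

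**Figure D1:**
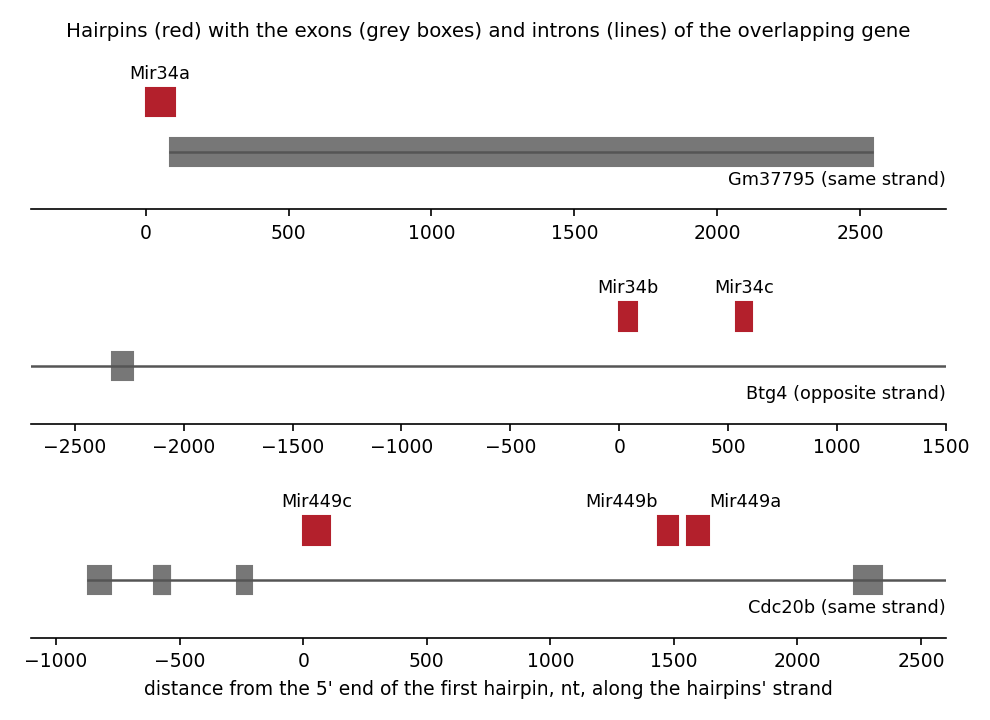
The 3 loci drawn along the strand of the hairpins, with distance in nt from the 5′ end of the first hairpin on each horizontal axis, hairpins in red, and exons (boxes) and introns (lines) of the overlapping gene in grey. Mir34a stands alone, Mir34b and Mir34c lie 451 nt apart opposite to an intron of Btg4, and the Mir449 hairpins lie within 1 intron of Cdc20b.

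Counts are of reads on the gene's own strand and join both arms of a hairpin. They summed to 3017058 in replicate 1 and 3209361 in replicate 2, which is 35.5% and 34.5% of all reads, and CPM below scales a count to these sums. Reads placed at several loci, 40.3% and 39.0% of all reads, are outside the gene counts. The count of a gene whose mature sequence has a copy at another locus is therefore not the level of that mature microRNA. With 3 counts as the limit that a count of 0 leaves, a gene without reads can have had up to 0.994 CPM in replicate 1 or 0.935 CPM in replicate 2. These limits and the intervals below cover counting error only, because PCR reads without molecular identifiers are not independent molecules. A gene with at least 10 counts in both libraries is called detected here, as were 17.9% of all genes. Of marker microRNA genes, 6 of 9 for neurons, 3 of 3 for astrocytes and 2 of 3 for oligodendrocytes were detected. This does not check the tissue label, because the choroid and epithelial list below was detected at 69.2% and the neuron genes at 66.7%. The neuron genes held 21.4% and 20.1% of counts, and the 3 below the minimum were Mir124a-1, Mir124a-2 and Mir124a-3, at 0 to 9 counts a library. These 3 genes are copies of 1 microRNA at different loci, and reads that they share are not counted. Their low counts therefore do not show that the mature microRNA was scarce.

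The family was present in the cortex, mostly as Mir34a. All members together gave 5486 counts in replicate 1 and 7236 in replicate 2, or 1818 and 2255 CPM (mean 2036 ± 309 CPM, SD, n = 2), which is 0.204% ± 0.031 of all microRNA gene counts. Of the 6 members, 4 were detected, against 395 of all 2202 genes (17.9%). The 2 that were not are Mir449b and Mir449c.

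Mir34a, a p53 target and the member best known from neurons, had 4011 counts in replicate 1 and 6144 in replicate 2. This is 1329 and 1914 CPM (1622 ± 414 CPM, SD, n = 2), with exact 95% counting intervals of 1289 to 1371 and 1867 to 1963 CPM. It ranked 82nd of the 2202 genes by mean level. Both libraries placed it above every other member. The microRNA genes closest to it in level over both libraries, by distance on the log2(CPM + 1) scale, were Mir130a with 4041 and 5965 counts and Mir27b with 3873 and 5944 counts.

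Mir34c, best known from multiciliated cells and testis, had 1363 counts in replicate 1 and 824 in replicate 2. This is 452 and 257 CPM (354 ± 138 CPM, SD, n = 2), and the gene ranked 148th. The higher library was replicate 1, whereas for Mir34a it was replicate 2. Closest in level were Mirlet7a-1 with 1217 and 1009 counts and Mir488 with 1042 and 873 counts. Reads that Mirlet7a-1 shares with Mirlet7a-2 are outside these counts, so they do not give the level of the mature microRNA.

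Mir34b had 16 counts in replicate 1 and 24 in replicate 2, or 5.30 and 7.48 CPM (6.39 ± 1.54 CPM, SD, n = 2). It ranked 361st, although its hairpin lies 451 nt from that of Mir34c on the same strand. Mir34c gave 85.2 times as many counts as Mir34b in replicate 1 and 34.3 times as many in replicate 2. Closest in level to Mir34b were Mir6240 with 16 and 25 counts and Mir6959 with 17 and 24 counts.

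Of the Mir449 cluster, the Mir449a gene supplied nearly every count. It had 94 counts in replicate 1 and 244 in replicate 2, or 31.2 and 76.0 CPM (53.6 ± 31.7 CPM, SD, n = 2), with counting intervals that do not overlap (25.2 to 38.1 and 66.8 to 86.2 CPM). Mir449a ranked 228th, and its mean is 1.72 times its level without replicate 2. Mir24-2 with 89 and 200 counts and Mir1193 with 126 and 221 counts were closest in level. For Mir24-2, reads shared with Mir24-1 are likewise outside the counts. Mir449b, 35 nt away, had 2 counts in replicate 1 and 0 in replicate 2, and Mir449c had 0 in both. Against the limit of 3 counts a library, Mir449a was at least 31.3-fold higher than Mir449c in replicate 1 and at least 81.3-fold higher in replicate 2.

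The levels thus ran Mir34a, Mir34c, Mir449a, Mir34b, Mir449b and Mir449c, high to low. Each of the first 4 had both libraries above both libraries of the next, so these steps exceed the spread between the libraries. They were not tested. The steps compare read counts of different sequences, and how evenly the libraries captured these sequences was not measured. Mir34a stood 4.58-fold above Mir34c on the means of CPM, and 2.94-fold and 7.46-fold above it in replicates 1 and 2. Mir34c stood 6.61-fold above Mir449a on the means, and 14.5-fold and 3.38-fold above it in the same libraries. Mir449a stood 8.39-fold above Mir34b on the means, and 5.88-fold and 10.2-fold above it, so the sizes of the steps differ between the libraries while their direction does not. Mir449b and Mir449c overlapped and were not distinguishable at this depth. A microRNA read covers a mature arm and not the hairpin, and the order was the same with CPM divided by hairpin length, at 1590 CPM per 100 nt for Mir34a, 460 for Mir34c, 58.9 for Mir449a and 7.61 for Mir34b. With hairpins of 77 to 109 nt, this division could hardly change the order.

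**Figure D2:**
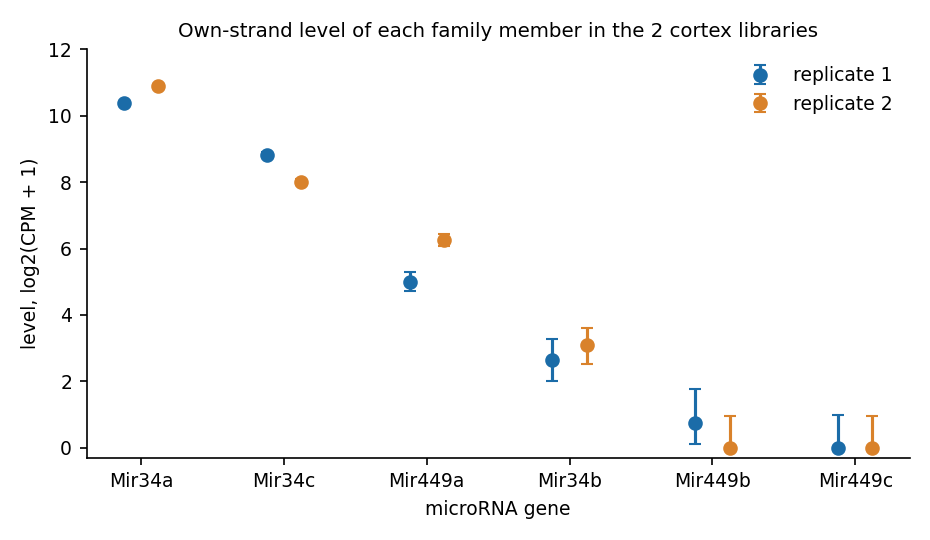
Level of each member on the log2(CPM + 1) scale (vertical axis) in replicate 1 (blue) and replicate 2 (orange), with exact 95% counting intervals, which at a count of 0 end at the limit of 3 counts. Mir34a is highest in both libraries and Mir449c has no count; Mir34c is higher in replicate 1, and Mir34a and Mir449a are higher in replicate 2.

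**Figure D3:**
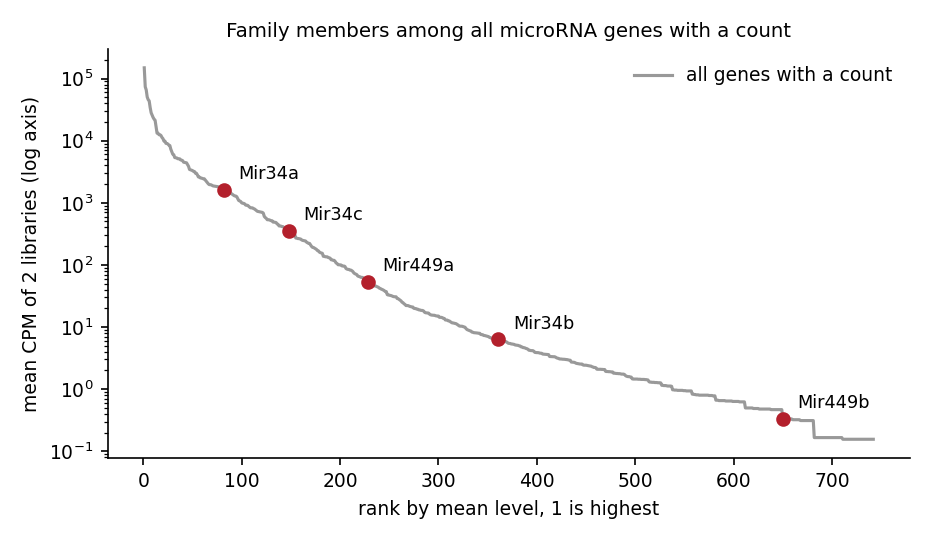
Mean CPM of the 2 libraries (log axis) against rank for all microRNA genes with a count (grey line), with the 5 members that had a count in red. No member is ranked above Mir34a at 82, which is followed by Mir34c at 148, Mir449a at 228 and Mir34b at 361.

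The members did not differ between the libraries in 1 direction. After TMM scaling of the library sizes, Mir34c was 2.06-fold higher in replicate 1 (log2 ratio 1.04 of replicate 1 over replicate 2, 95% interval 0.92 to 1.17). Mir449a was 2.08-fold higher in replicate 2 (log2 ratio -1.06, interval -1.42 to -0.71). Mir34a was 1.23-fold higher in replicate 2 (log2 ratio -0.30, interval -0.36 to -0.24). For Mir34b the log2 ratio was -0.27 with an interval of -1.28 to 0.71, so no difference was detectable at its depth. TMM moved the median log2 ratio of all genes by 0.23 relative to library totals. With library totals the ratios were 0.82 for Mir34c, -1.29 for Mir449a and -0.53 for Mir34a, with the same directions.

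An exact binomial test of each gene, with Benjamini-Hochberg adjustment over the 496 genes whose counts summed to at least 10, called 3 of the 4 members tested (adjusted p 7.96e-62 for Mir34c, 7.56e-24 for Mir34a, 9.91e-10 for Mir449a and 0.72 for Mir34b). The same test called 56.5% of all genes, namely 30.6% toward replicate 1 and 25.8% toward replicate 2, so a call is common in these libraries and compares them, not conditions. The median absolute log2 ratio was 0.67 over the 4 members and 0.53 over all 496 genes, of which 23.6% differed over 2-fold. The biological coefficient of variation, the spread between libraries beyond counting noise, was 36.7% (edgeR common dispersion with an intercept alone). With that spread counted as noise, edgeR's exact test called none of the 496 genes, of which 33 had an unadjusted p under 0.05, and gave unadjusted p of 0.18 for both Mir34c and Mir449a and 0.70 for Mir34a. The dispersion came from the same 2 libraries, so this comparison has no independent measure of noise.

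**Figure D4:**
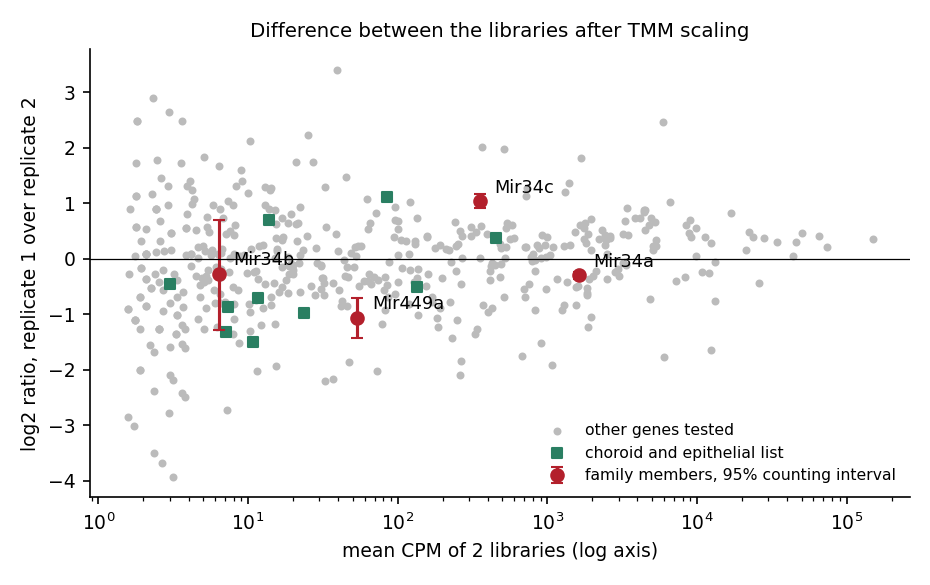
Log2 ratio of replicate 1 over replicate 2 after TMM scaling (vertical axis) against mean CPM (log axis) for genes with at least 10 counts in total (grey), the choroid and epithelial list (green squares) and the family (red, with 95% counting intervals). Mir34c lies at 1.04 and Mir449a at -1.06, and 3 genes with 0 counts in one library are not drawn; both members lie inside the range of other genes of like level.

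Because Mir34c was higher in one library and Mir34a and Mir449a in the other, the make-up of the family differed, and this needs no library size. Mir34c held 24.8% of the family's counts in replicate 1 (exact 95% interval 23.7 to 26.0) and 11.4% in replicate 2 (10.7 to 12.1). Mir34a held 73.1% (71.9 to 74.3) and 84.9% (84.1 to 85.7). Mir449a held 1.71% (1.39 to 2.09) and 3.37% (2.97 to 3.81), and Mir34b held 0.29% and 0.33%.

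Set against Mir34c within each library, Mir449a stood at 0.0690 counts per Mir34c count in replicate 1 and 0.296 in replicate 2, a 4.29-fold difference (two-sided exact Fisher test, adjusted p = 1.24e-32 over 3 tables). Mir34a stood at 2.94 and 7.46 counts per Mir34c count (exact Fisher test, adjusted p = 7.70e-84). Mir34b, next to Mir34c, stood at 0.0117 and 0.0291 (exact Fisher test, adjusted p = 0.0050), on 16 and 24 counts. The 3 tables share Mir34c, the detected member that was higher in replicate 1, so their common direction is not independent, and counting noise is their only error. Set against the sum of all other members, Mir34b did not pass (exact Fisher test, adjusted p = 0.75).

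**Figure D5:**
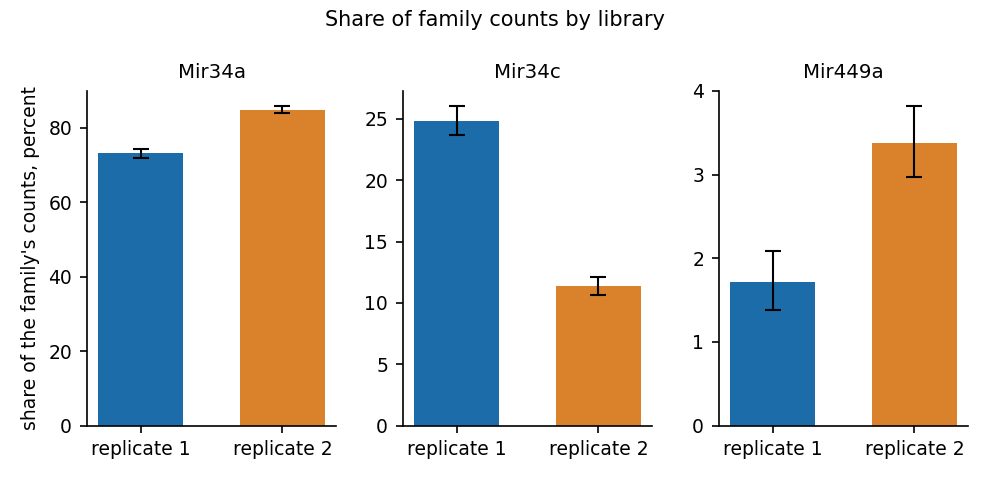
Share of the family's counts in percent for Mir34a, Mir34c and Mir449a in replicate 1 (blue) and replicate 2 (orange), each panel with its own scale from 0, with exact 95% intervals. Mir34c holds 24.8% in replicate 1 and 11.4% in replicate 2, while Mir34a and Mir449a hold more in replicate 2.

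Other microRNA genes known from choroid plexus and epithelium were also counted, since Mir34c and Mir449a are known from ciliated cells. Of 13 listed genes, 9 were detected (69.2%, against 17.9% of all genes), 2 (Mir141 and Mir96) had 0 counts in both libraries, and the list held 0.0745% of counts in replicate 1 and 0.0763% in replicate 2. Mir204, strongly expressed in choroid plexus, had 1446 and 1390 counts (456 ± 32.6 CPM, SD, n = 2). Mir375, known from endocrine cells, had 306 and 540 counts, and Mir203, known from skin, had 332 and 190. Of 10 genes tested, 2 were called higher in replicate 1 (Mir204 and Mir203) and 4 higher in replicate 2 (Mir375, Mir429, Mir205 and Mir182), a share called of 60.0% against 56.5% of all genes, so the list is near the background. Mir429 had 43 and 106 counts and Mir205 had 15 and 53 counts. The part of other tissue in these differences was not tested, and in whole tissue fewer cells of a type and less RNA per cell cannot be told apart.

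Other microRNA genes linked to p53 were read beside the family, since Mir34a is itself such a gene. Of 11 listed genes, 7 were detected (63.6%, against 17.9% of all genes), and the list held 1.05% of counts in replicate 1 and 0.780% in replicate 2. Mir143, a smooth muscle microRNA, was highest with 16611 and 11211 counts. Mir107, within an intron of a pantothenate kinase gene, had 11520 and 8934 counts, and Mir15a, which represses the survival gene Bcl2, had 833 and 3486. Mir34a, at 1622 CPM on average, lay below Mir107 at 3301 CPM and above Mir15a at 681 CPM. Of 8 genes tested, Mir143, Mir107 and Mir145a were called higher in replicate 1 and Mir15a and Mir192 higher in replicate 2, a share called of 62.5%, close to the 56.5% of all genes. Mir192, of intestine and kidney, had 5 and 41 counts, and Mir215, its partner in seed, had 0 in both. Mir200c and Mir141 stand in both lists.

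Reads on the strand opposite to the hairpin were seen at 1 member. Mir34b had 10 such reads in replicate 1 and 7 in replicate 2, beside 16 and 24 on its own strand. These are 38.5% (exact 95% interval 20.2 to 59.4) and 22.6% (9.59 to 41.1) of its reads on both strands. Mir34a, Mir34c, Mir449a, Mir449b and Mir449c had 0 opposite-strand reads in both libraries, which for Mir34c allows a share of up to 0.220% in replicate 1 and 0.364% in replicate 2 (3 counts). Among 369 detected genes that no other microRNA gene overlaps on the opposite strand, 8 had opposite-strand reads in both libraries and 3 had at least 10% of reads there in both, which were Mir3083, Mir34b and Mir5620.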

How the data were processed

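The authors deposited 1 table per library of raw read counts per microRNA gene, made from 1 FASTQ file on mm10 with GENCODE M21, per the sample descriptions. For the aligner and the counter, nothing is stated in those descriptions. Without a header in the files, the strand roles of their columns were read from the values. The 4 rows of reads in no gene were left out of library sizes. Gene names and positions come from GENCODE M21, and sequences from RefSeq. CPM, exact Clopper-Pearson 95% intervals, two-sided exact binomial tests given TMM sizes and exact Fisher tests were computed with Python 3.11.15, scipy 1.17.1, edgeR 4.0.16 and DESeq2 1.42.0, and hairpins were folded with RNAfold 2.7.2. The binomial test was tried on counts simulated with counting noise alone. Those counts lack the spread between libraries seen here, so they cannot show how the test behaves under it. An adjusted p under 0.05 was a call. The members, gene lists and tests were chosen with earlier results of these data known. Named genes are the members, for each detected member the 2 genes nearest in level, the highest 3 of the p53-linked and the choroid and epithelial lists, and overlapping or neighbouring genes; Mir429, Mir205, Mir182, Mir141, Mir96, Mir200c, Mir192, Mir145a, Mir215, Mir3083, Mir5620 and the Mir124a genes were named after their values were seen. Alternatives were the either-strand column, other scalings, minimums and denominators, a noise model with dispersion, and leaving out each replicate.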

Additional observations from a re-analysis of the deposited data

Results flagged for a closer look

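Opposite-strand reads of Mir34b stood out as a signal in a column that the levels do not use, with 10 counts in replicate 1 and 7 in replicate 2, above the 3 counts that a count of 0 allows. Both libraries showed them, while Mir34c, 451 nt away on the same strand, had 0 in both. Btg4 is annotated on that opposite strand, and its part in these reads was not tested.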

How the results depend on the processing

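With reads of every class as the denominator, the family stood at 713 CPM in place of 2036 CPM, and leaving out each replicate gave 1818 to 2255 CPM. A minimum of 100 counts in both libraries left 2 members detected (Mir34a and Mir34c) and 3 choroid and epithelial genes. With edgeR's exact test at the common dispersion, 0 of 496 genes and 0 members were called, against 280 genes and 3 members by the binomial test; the added noise term is the difference between these tests. In the either-strand column the log2 ratio of Mir34b turned from -0.27 to 0.014, on 26 and 31 counts that include the opposite-strand reads, and its level was 9.79 CPM in place of 6.39 CPM. Against the sum of all other members the log2 ratio of Mir34b shares was -0.19 in place of -1.31. The other results of the comparisons kept their direction and their side of the threshold under the alternatives run, and the order of the 6 members held in the either-strand column, per 100 nt of hairpin and without replicate 2. The strand and length settings could hardly change this order, because only Mir34b had opposite-strand reads and hairpins ran from 77 to 109 nt. Without replicate 1, Mir449b and Mir449c were tied at 0 and 4 members kept their place. No paired analysis was possible because the libraries form 1 group. Low counts limit Mir34b, Mir449b and Mir449c.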

Other observations

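Neighbouring hairpins on 1 strand, at most 1000 nt apart and both detected, formed 54 pairs, a comparison chosen after the values were seen. Mir34c and Mir34b were 5.76 apart on the log2 scale, averaged over the libraries, against a median of 2.64, and 5 of the 54 pairs were at least as far apart, this pair included. Some of the 54 pairs hold a gene with a copy at another locus, such as Mir29a with Mir29b-1 at 6.42. Reads shared between copies are not counted, so the median is of these counts and not of mature levels. Between the libraries the ratio within the pair moved by 1.31 on the log2 scale, against a median of 0.76, and 9 of the 54 pairs moved at least as much. Mir449a was 1 of 26 detected genes with such a neighbour at 3 counts or fewer in both libraries.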
